A study of Rattus norvegicus with 70 samples.

Results

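The 33 genes described here encode the enzymes, transporters and regulators of mitochondrial and peroxisomal fatty acid oxidation. They were chosen by name as members of this pathway and mapped from NCBI gene numbers to rat symbols. All 33 were found among the 15319 genes of each of the 6 count tables. No value of theirs entered the rule of choice, but earlier results of these data were known when it was made. The study sequenced RNA of 3 fat depots, brown (BAT), subcutaneous (SAT) and visceral (VAT), in 24 rats of the outbred Sprague-Dawley stock. PCB 52, a polychlorinated biphenyl congener, was inhaled by 1 set of rats, and the others formed the sham group. The study asks how gene expression in fat responds to this exposure in adolescent animals. Rats were 28 days old at the start of acclimation, and nose-only exposure ran for 4 h daily over 28 days. It began at 39 days of age in males and at 42 days in females, so that sex and starting age cannot be told apart. The 70 libraries formed 12 groups of depot, sex and treatment with 6 rats each, except for SAT of sham females and VAT of PCB 52 males, which had 5 each. The labels name no genetic change and no agent besides PCB 52, and all rats had the same nose-only training and stock diet. Libraries are called here by the number in their labels, taken as that of the rat, which is even in females and odd in males. Nothing else in the labels ties libraries of 1 number together, and p-values measure the spread between libraries of a group.

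Long-chain fatty acids are activated to acyl-CoA by acyl-CoA synthetases, carried into mitochondria by the carnitine palmitoyltransferases and the carnitine-acylcarnitine translocase, and shortened there by repeated rounds of dehydrogenation, hydration, a second dehydrogenation and thiolytic cleavage. Peroxisomes run a related cycle that shortens very-long-chain acids. Brown adipose tissue is known for burning fatty acids to make heat, whereas white depots mainly store and release them.

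Total counts ran from 4604116 to 9707132 per library. Levels are given in CPM, counts scaled to a common library size with TMM factors over all libraries. Where 3 CPM values are given for a group, they are its lowest, median and highest library, and ± gives the standard error of a log2 fold change. The labelled depots were checked against marker genes. Ucp1, which encodes the uncoupling protein of brown fat, had 115 to 10966 CPM in BAT and at most 1.29 CPM in SAT. In VAT it was at 0 in 14 libraries but reached 360.4 CPM, above the lowest BAT library, so that this marker alone did not separate all BAT and VAT libraries. The summed level of 9 adipocyte genes ran from 20472 to 40014 CPM in BAT and from 21590 to 61710 CPM in VAT. In SAT it ran from 3632 to 68419 CPM, and 10 mammary epithelial genes, which include the caseins, summed to between 2.81 and 307755 CPM there, against at most 3.22 CPM in BAT and 125 CPM in VAT. Skeletal muscle genes summed to between 374 and 66520 CPM in BAT, between 33.3 and 25413.5 CPM in SAT and to at most 1375 CPM in VAT. An earlier analysis of these data had singled out 7 libraries that stand apart, namely BAT of rat 24, SAT of rats 8 and 19, and VAT of rats 4, 8, 11 and 13. Differences that move with them are given with and without them. The VAT library of rat 13 has 0 counts at 268 of 402 genes of chromosome 9 that have at least 10 counts in the other libraries, Acadl among them, and at 307 of 314 such genes of the X chromosome.

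In sham rats, nearly the whole pathway was higher in BAT than in the white depots, with Cpt1a and Abcd2 as the genes that ran lower. In females, 29 of the 33 genes were higher in BAT than in SAT and 1 was lower (adjusted p under 0.05 in edgeR's quasi-likelihood test over all genes), where 16.5% of all tested genes were higher and 21.8% lower. In males the counts were again 29 and 1, against 27.6% and 29.9% of all genes. The median log2 fold change of the members was 3.22 in females and 2.49 in males, beside -0.14 and -0.07 over all tested genes. Compared with VAT, BAT was higher for 26 genes and lower for 2 in females, where 26.2% of all genes were higher and 24.5% lower. In males it was higher for 29 and lower for 2, where 25.4% were higher and 29.2% lower. The member medians were 1.80 and 2.35, beside -0.04 and -0.08 over all genes. In bulk tissue, fewer cells of a type and less RNA per cell cannot be told apart.

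**Figure D1:**
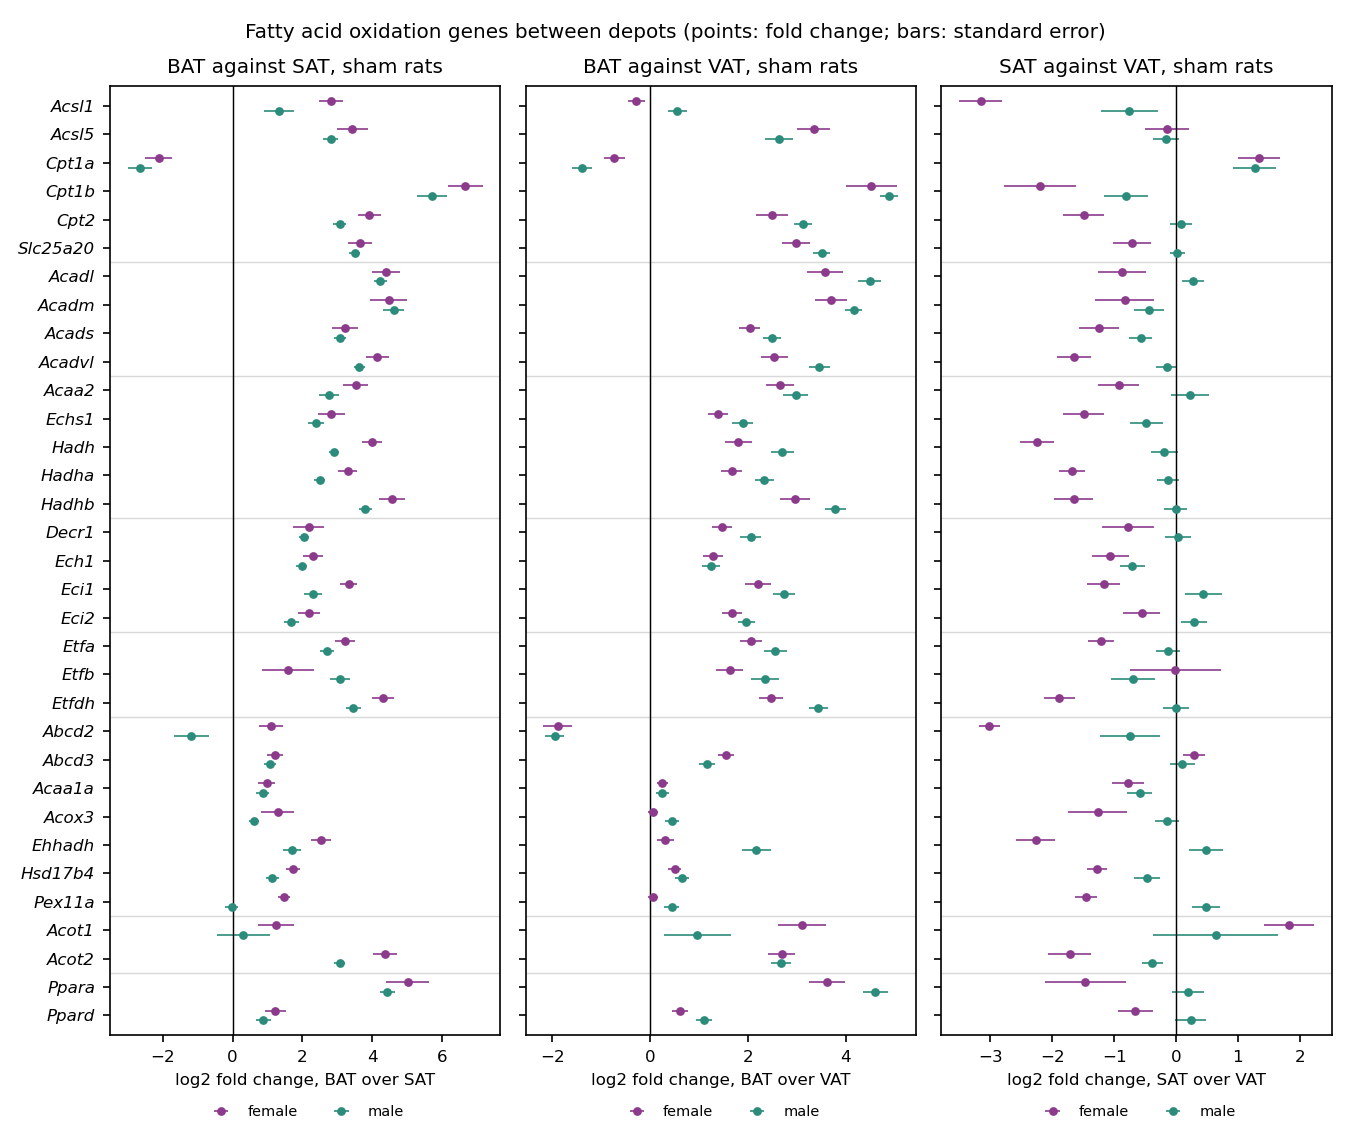
Log2 fold change (x axis) of each of the 33 genes (y axis, grouped by role) between depots of sham rats, for females and males; points are fitted values and bars standard errors. Nearly all genes lie to the right of 0 in the 2 comparisons with BAT, Cpt1a lies to the left in both, and the SAT against VAT differences are wider in females than in males.

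Genes for activation and mitochondrial import showed both the largest BAT excess and its exception. Cpt1b, the muscle-type carnitine palmitoyltransferase that commits acyl-CoA to mitochondria, had 843, 1444 and 1929 CPM as lowest, median and highest values in BAT of sham females. In SAT of the 5 sham females it had 6.95, 8.97, 12.1, 14.05 and 27.5 CPM, and in VAT 22.3, 43.6 and 177 CPM. No BAT library of the sham groups overlapped with the other depots. The log2 fold change of Cpt1b was 6.66 ± 0.50 (SE, adjusted p = 3.12e-06) against SAT and 4.52 ± 0.53 (adjusted p = 2.76e-05) against VAT in females. Without the VAT libraries of rats 4 and 8 the female difference of Cpt1b from VAT was 5.43. In males Cpt1b differed by 5.72 ± 0.43 (adjusted p = 2.69e-07) from SAT and 4.88 ± 0.19 (adjusted p = 1.21e-09) from VAT. Cpt1a, the liver-type isoform of the same enzyme, ran the other way. Its lowest, median and highest CPM in BAT of sham females were 15.5, 26.6 and 41.3. The 5 SAT libraries had 37.8, 95.7, 130, 158 and 199 CPM, where the lowest, from rat 8, alone fell within the BAT range. In VAT they were 36.0, 48.1 and 62.9 CPM. Cpt1a was lower in BAT than in SAT by -2.12 ± 0.38 (adjusted p = 0.00111) in females and -2.65 ± 0.36 (adjusted p = 5.6e-05) in males, and lower than in VAT by -0.74 ± 0.21 (adjusted p = 0.0112) and -1.39 ± 0.21 (adjusted p = 6.1e-05).

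The balance of the 2 isoforms differed between the depots. The ratio of Cpt1b to Cpt1a CPM, which is not corrected for gene length and is compared only between libraries, had a median of 55.7 in BAT of sham females and 61.3 in BAT of sham males. In SAT the medians were 0.0764 and 0.202, and in VAT 0.851 and 0.736. The ranges of SAT and VAT overlapped in both sexes. Among all 70 libraries the lowest BAT ratio, 3.27 in the PCB 52 female rat 24, was below the highest VAT ratio, 4.93 in the sham female rat 4. The next lowest BAT ratio was 19.2. These 2 libraries also differ in their brown adipocyte genes, whose summed level was 381 CPM in the BAT library of rat 24 and 1326 CPM in the VAT library of rat 4.

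**Figure D2:**
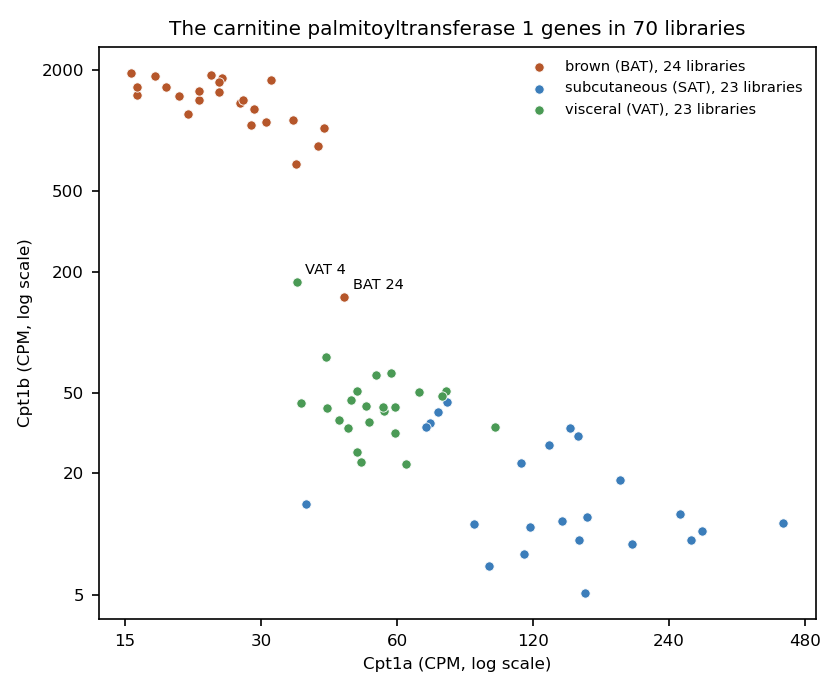
Cpt1a (x axis) against Cpt1b (y axis) in each of the 70 libraries, both in CPM on log scales and coloured by depot. The BAT libraries sit at the upper left, with 149.9 to 1929 CPM of Cpt1b, and SAT libraries mostly at the lower right, with VAT between them.

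The other import genes followed Cpt1b. Slc25a20, the carnitine-acylcarnitine translocase, had 440, 760 and 943 CPM in BAT of sham females, 41.8 to 97.9 CPM in SAT and 70.04, 78.5 and 176 CPM in VAT. It was higher in BAT by 3.64 ± 0.35 (SAT) and 2.98 ± 0.28 (VAT), and in males by 3.50 ± 0.15 and 3.50 ± 0.18. Cpt2, which regenerates acyl-CoA inside mitochondria, was higher in BAT by 3.92 (SAT) and 2.48 (VAT) on the log2 scale in females, and by 3.07 and 3.13 in males. The 2 acyl-CoA synthetases differed from each other. Acsl5 was higher in BAT than in VAT by 3.34 ± 0.34 in females and 2.64 ± 0.28 in males (adjusted p = 1.33e-05 and 3.27e-06). Acsl1, the main synthetase of adipocytes, had 4564, 5629 and 6341 CPM in BAT of sham females and 5284, 6643 and 9736 CPM in VAT, and these ranges overlapped. Its difference from VAT was -0.28 ± 0.17 (adjusted p = 0.186) in females and 0.55 ± 0.19 (adjusted p = 0.0268) in males. Without the VAT library of rat 11 the male value was 0.49, with an adjusted p of 0.0506. Against SAT, Acsl1 was higher in BAT by 2.82 ± 0.35 in females and 1.33 ± 0.44 in males.

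The 4 acyl-CoA dehydrogenases, which carry out the first oxidation at different chain lengths, were higher in BAT in all 4 comparisons. Their log2 fold changes ran from 3.08 for Acads in males to 4.61 for Acadm in males against SAT, and from 2.03 for Acads in females to 4.49 for Acadl in males against VAT. Acadm, the medium-chain enzyme, had 1779, 2886 and 3970 CPM in BAT of sham females and 2254, 3005 and 3571 CPM in sham males. In VAT it had 152.5, 177 and 459.9 CPM in females and 142, 175 and 195 CPM in males. The BAT and VAT ranges did not overlap in either sex. Acadl, the long-chain enzyme, was higher by 4.40 ± 0.40 against SAT in females and 4.23 ± 0.19 in males. Acadvl, the very-long-chain enzyme of the inner membrane, was higher in BAT by 4.14 ± 0.33 against SAT and 2.54 ± 0.28 against VAT in females (adjusted p = 3.55e-06 and 1.93e-05). In males the values were 3.63 ± 0.16 and 3.46 ± 0.21.

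The enzymes of the later steps of the mitochondrial spiral were also higher in BAT without exception: all 5 genes passed the test in both sexes and against both depots. Hadha and Hadhb encode the alpha and beta subunits of the mitochondrial trifunctional protein. Hadhb had 2515, 4261 and 5570 CPM in BAT of sham females, 127 to 270.2 CPM in SAT and 340.4, 489 and 1015 CPM in VAT, with no overlap. Its log2 fold change was 4.57 ± 0.38 against SAT and 2.96 ± 0.30 against VAT. In males it was 3.81 ± 0.19 and 3.78 ± 0.21. For Hadha the female values were 3.30 ± 0.27 and 1.66 ± 0.22. The 2 subunit genes lie head to head on chromosome 6, with start sites 301 bases apart in the RefSeq annotation of GRCr8, so their promoter windows share 200 bases. The windows, which run from 250 bases before to 50 bases after each start site, are shown because they overlap. Both genes were higher in BAT, as were nearly all members, and by unlike amounts in females. Capitals in the Hadha window (chr6:31907551-31907850, plus strand) mark the bases shared with the Hadhb window (chr6:31907451-31907750, minus strand), where capitals mark the half-site motif described further on.
Hadha: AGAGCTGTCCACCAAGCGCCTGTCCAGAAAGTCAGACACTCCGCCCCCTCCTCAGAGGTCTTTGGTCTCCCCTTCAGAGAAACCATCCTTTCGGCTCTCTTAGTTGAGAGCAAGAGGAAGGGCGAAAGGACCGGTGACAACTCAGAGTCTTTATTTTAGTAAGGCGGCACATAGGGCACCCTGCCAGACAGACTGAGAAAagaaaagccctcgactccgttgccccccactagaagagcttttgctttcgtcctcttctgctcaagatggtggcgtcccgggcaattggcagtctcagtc
Hadhb: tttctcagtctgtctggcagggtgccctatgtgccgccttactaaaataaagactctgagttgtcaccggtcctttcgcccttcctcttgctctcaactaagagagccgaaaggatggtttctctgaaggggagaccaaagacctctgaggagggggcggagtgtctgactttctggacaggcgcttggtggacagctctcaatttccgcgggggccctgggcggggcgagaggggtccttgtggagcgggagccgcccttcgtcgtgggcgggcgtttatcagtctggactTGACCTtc
Hadh, the short-chain hydroxyacyl-CoA dehydrogenase, was higher in BAT by 4.00 ± 0.28 against SAT and 1.80 ± 0.28 against VAT in females. The corresponding values were 2.83 and 1.39 for Echs1, the short-chain hydratase, and 3.53 and 2.65 for Acaa2, the mitochondrial thiolase.

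Auxiliary enzymes for unsaturated acids and the electron transfer proteins were also higher in BAT, except that Etfb missed the threshold in 1 comparison. Eci1, Eci2, Decr1 and Ech1, the isomerases and the dienoyl-CoA reductase, were higher in BAT in all 4 comparisons, by 1.25 to 3.33 on the log2 scale. Etfdh, which passes electrons from the dehydrogenases to ubiquinone, had 659, 995 and 1341 CPM in BAT of sham females against 32.0 to 59.7 CPM in SAT and 128, 168 and 305 CPM in VAT. Its difference was 4.31 ± 0.30 (adjusted p = 1.9e-06) and 2.47 ± 0.25 (adjusted p = 1.21e-05). Etfa, the alpha subunit of the electron transfer flavoprotein, was higher in BAT in all 4 comparisons. Etfb, the beta subunit, missed the threshold against SAT in females, with 1.58 ± 0.75 (adjusted p = 0.117). The 5 SAT values of Etfb were 53.5, 59.4, 66.0, 99.3 and 859 CPM, the highest from rat 8. Without that library the difference of Etfb was 3.33 (adjusted p = 2.91e-06), and with the rat as a replicate block it was 2.78 (adjusted p = 0.0182).

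The 7 peroxisomal genes set themselves apart by smaller and mixed differences. Their median log2 fold change was 1.29 and 0.86 against SAT in females and males and 0.25 and 0.45 against VAT. The peroxisomal thiolase Acaa1a (0.25 in both sexes, adjusted p = 0.095 and 0.142) did not pass the test against VAT. Neither did the bifunctional enzyme Ehhadh in females (0.31 ± 0.17, adjusted p = 0.153), although it did in males (2.16 ± 0.29, adjusted p = 3.01e-05). Without the VAT libraries of rats 4 and 8 the female value of Ehhadh was 0.56 ± 0.13 and passed (adjusted p = 0.00416). Abcd3, a half-transporter for long-chain acyl-CoA, was higher in BAT by 1.07 to 1.55 in all 4 comparisons. Pex11a, a factor of peroxisome division, was higher in BAT than in SAT in females (1.47 ± 0.18, adjusted p = 6.99e-05), while in males the difference was -0.03 ± 0.20.

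Abcd2, a peroxisomal half-transporter for very-long-chain acyl-CoA, was the other gene that was lower in BAT than in VAT. It had 51.7, 80.4 and 190.3 CPM in BAT of sham females against 324, 372 and 389 CPM in VAT, and 71.4, 116 and 157 CPM against 319, 440.0 and 545 CPM in males. The groups did not overlap in either sex. The differences were -1.89 ± 0.29 (adjusted p = 0.000197) and -1.95 ± 0.19 (adjusted p = 1.67e-06). Against SAT the sexes gave opposite signs, 1.09 ± 0.35 (adjusted p = 0.0284) in females and -1.18 ± 0.50 (adjusted p = 0.0606) in males, and the difference between them was not tested. The female value missed the threshold with plain library totals (0.87, adjusted p = 0.13) and with the rat as a replicate block (0.70, adjusted p = 0.138). Promoter windows of Abcd2 (chr7:124191153-124191452, minus strand) and of Acadvl (chr10:55236656-55236955, minus strand), the peroxisomal and the mitochondrial very-long-chain genes that differed in opposite directions between BAT and VAT, are shown with the half-site motif in capitals.
Abcd2: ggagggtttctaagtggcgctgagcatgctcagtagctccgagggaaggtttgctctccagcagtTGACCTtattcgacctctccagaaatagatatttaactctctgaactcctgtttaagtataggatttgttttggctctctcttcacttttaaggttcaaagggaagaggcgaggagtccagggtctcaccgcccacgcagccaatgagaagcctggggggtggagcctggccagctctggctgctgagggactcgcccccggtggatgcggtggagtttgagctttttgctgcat
Acadvl: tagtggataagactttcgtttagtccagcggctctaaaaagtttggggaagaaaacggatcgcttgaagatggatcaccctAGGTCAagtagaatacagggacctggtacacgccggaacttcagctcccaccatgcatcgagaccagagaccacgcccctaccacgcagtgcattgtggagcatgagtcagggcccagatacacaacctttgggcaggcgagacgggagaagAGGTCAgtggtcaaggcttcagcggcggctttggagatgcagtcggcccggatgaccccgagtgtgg
The motif is AGGTCA or its reverse complement TGACCT, the half-site of nuclear receptors such as the PPARs. RefSeq windows were found for 27 of the 33 genes, and not for Acadl, Ech1, Decr1, Cpt1b, Acaa2 and Ppard. The motif occurred on either strand in 7 of the 27 windows (25.9%), against 5415 of all 33469 windows (16.2%). Those 7 were Echs1, Hadhb, Abcd2, Eci1, Acadvl, Eci2 and Hsd17b4. In the Acadvl window the first bases of its 2 matches lie at positions -169 and -17 from the start site, and the single match of Abcd2 lies at -185. The direct repeat of 2 half-sites with 1 base between them (DR1) was in 0 of the 27 windows and in 18 of all windows (0.0538%). A match is a stretch of letters and not a shown binding site.

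Of the acyl-CoA thioesterases, which release free fatty acids from acyl-CoA, Acot2 was higher in BAT in all 4 comparisons (2.67 to 4.36). Acot1 stayed below 22.1 CPM in every library and passed the test only against VAT in females (3.11 ± 0.49, adjusted p = 0.000246). Acot1 and Acot2 are neighbouring, closely related genes, so that reads could have been split between them and the Acot1 counts are uncertain. The nuclear receptor Ppara, which activates many genes of this pathway, had 61.6, 125 and 165 CPM in BAT of sham females. The 5 SAT libraries had between 0 and 5.50 CPM, and VAT 5.88, 8.12 and 23.4 CPM. The groups did not overlap, and the differences were 5.01 ± 0.63 (adjusted p = 7.97e-05) and 3.61 ± 0.37 (adjusted p = 1.28e-05). In males they were 4.44 ± 0.21 and 4.61 ± 0.25. Its relative Ppard was higher in BAT by 0.61 to 1.23, with all 4 comparisons past the threshold.

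The summed level of the 33 genes was 25670, 37594 and 46981 CPM in BAT of sham females and 30824, 36174 and 42774 CPM in sham males. In VAT it was 10605, 13075 and 21519 CPM in females and 6941, 8911 and 12052 CPM in males. In SAT the 5 female libraries had 2938, 3290, 3453, 3560 and 6033 CPM, and males 4353, 7353 and 8469 CPM. BAT stood above both white depots in every sham library. The summed level of 8 brown adipocyte genes moved with these sums: it was 5870 to 16269 CPM in BAT of sham females, 290.2 to 1326 CPM in VAT and 33.4 to 84.1 CPM in SAT, and its part in the result was not tested. Skeletal muscle, which also oxidizes fatty acids, was present in BAT and in some SAT libraries. All 14 of its marker genes passed the test as higher in BAT than in VAT in females, where 26.2% of all genes did. In males 13 of 13 tested passed, where 25.4% of all genes did. Against SAT, 1 and 2 of the 14 did, where 16.5% and 27.6% of all genes did. The part of muscle in the BAT excess was not tested.

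**Figure D3:**
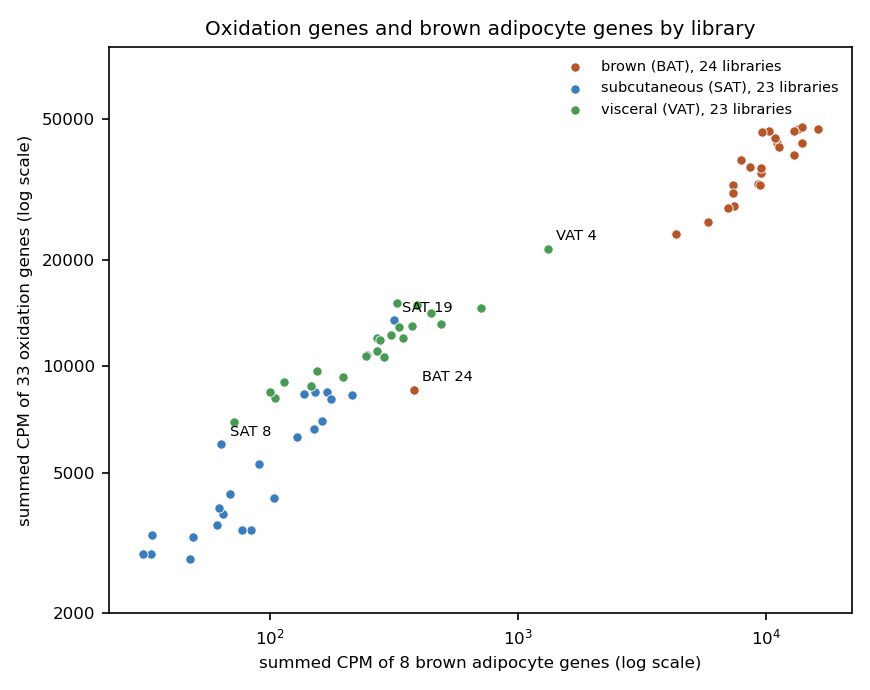
Summed CPM of the 33 oxidation genes (y axis) against summed CPM of 8 brown adipocyte genes (x axis), both on log scales, 1 point per library coloured by depot. The BAT library of rat 24 (381 and 8590 CPM) lies among the white depots, and the VAT library of rat 4 (1326 and 21519 CPM) lies nearest to BAT.

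SAT and VAT differed clearly in females and little in males. In sham females 19 of the 33 genes were lower in SAT than in VAT (13.5% of all genes were lower) and 2 were higher, Cpt1a and Acot1 (17.2% were higher). The median was -1.24 against 0.09 over all genes. In sham males 1 gene was lower, Ech1, against 4.96% of all genes, and 1 was higher, Cpt1a, against 6.9%. The median there was -0.13, beside -0.01 over all genes, and Acads (-0.57 ± 0.19), Acaa1a (-0.59 ± 0.20) and Hsd17b4 (-0.47 ± 0.20) were the next by p (adjusted p = 0.0624, 0.0701 and 0.138). Ech1 (-0.71 ± 0.20) had an adjusted p of 0.0411. Without the VAT library of rat 11, Acads (-0.65, adjusted p = 0.0272) and Acaa1a (-0.65, adjusted p = 0.0488) passed as well. The difference between the sexes in this contrast was not tested.

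The largest female differences between SAT and VAT were those of Acsl1, Abcd2, Ehhadh, Hadh, Cpt1b and Etfdh. Acsl1 was at 525, 572, 606, 711 and 1433 CPM in SAT, all below the 5284 CPM of the lowest VAT library (-3.16 ± 0.35, adjusted p = 4.97e-05). Abcd2 was at 37.1 to 57.5 CPM in SAT against 324 to 389 CPM in VAT (-3.02 ± 0.17, adjusted p = 1.1e-06). The other 4 differed by -2.26 ± 0.32 (Ehhadh), -2.25 ± 0.28 (Hadh), -2.20 ± 0.58 (Cpt1b) and -1.88 ± 0.25 (Etfdh). Without the SAT library of rat 8 and the VAT libraries of rats 4 and 8, Cpt1b differed by -1.29 ± 0.43 (adjusted p = 0.0366). In males the SAT value of Acsl1 spanned 528, 2822 and 3757 CPM and that of Abcd2 36.1, 295 and 438 CPM, and neither differed from VAT past the threshold (-0.75 ± 0.47 and -0.75 ± 0.49). Cpt1a was higher in SAT by 1.35 ± 0.34 in females (adjusted p = 0.0112) and 1.27 ± 0.35 in males (adjusted p = 0.0372), and with the rat as a replicate block by 1.09 (adjusted p = 0.0584) and 1.15 (adjusted p = 0.055). Cpt1b and Acot1 in females also missed the threshold in that blocked fit, with -1.66 (adjusted p = 0.0613) and 1.77 (adjusted p = 0.0615). Adipocyte genes moved in the same direction: 5 of 9 were lower in SAT than in VAT of females, where 13.5% of all genes were lower. Their summed levels were 4310, 6120, 7713, 9181 and 68419 CPM in SAT, the highest from rat 8, and 35676 to 61710 CPM in VAT. Every SAT library but that of rat 8 was thus below the lowest VAT library. The mammary genes summed to between 4927 and 25688 CPM in the 5 female SAT libraries and to at most 25.1 CPM in VAT. The part of either in the result was not tested.

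Sham males and females were compared within each depot. In BAT none of the 33 genes passed the test, where 0.0652% of all genes did. Their median difference, male over female, was -0.03. Acot2 (-0.75 ± 0.19, adjusted p = 0.31) and Acsl5 (-0.90 ± 0.29, adjusted p = 0.465) were the 2 members with an unadjusted p under 0.05, and DESeq2 called 1 member, Acot2 (-0.76, adjusted p = 0.031). The next members by p were Pex11a, Etfb and Acox3, with differences of -0.15, 0.22 and 0.12.

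In SAT, 3 genes were higher in sham males, against 0.344% of all genes: Hadh, Hadha and Pex11a. Hadh was at 104, 113, 118, 121 and 124 CPM in females and at 183, 234 and 269.6 CPM in males (1.00 ± 0.17, adjusted p = 0.0218). Pex11a was at 36.1, 50.4 and 63.2 CPM in females and 81.6, 122 and 201 CPM in males (1.39 ± 0.27, adjusted p = 0.0296). Its 2 highest male values, 201 CPM in rat 1 and 178 CPM in rat 11, came from the libraries with the highest mammary gene sums of the group (276613 and 207808 CPM). Its 2 lowest, 97.1 CPM in rat 3 and 81.6 CPM in rat 9, came from those with the lowest (1582 and 2.81 CPM). Across the sexes this order did not hold. All sham females had higher mammary gene sums than rats 3 and 9 (4927 to 25688 CPM) but less Pex11a. The part of mammary RNA was not tested. Hadha was higher by 0.93 ± 0.19 (adjusted p = 0.0407), and the sexes did not overlap for any of the 3. The count depended on single libraries. It was 8 without the SAT library of rat 8, 1 without rat 2, 9 or 12 and 0 without rat 3, 5, 6, 7 or 10, 1 with plain library totals and 11 with DESeq2. Abcd2 had the largest difference, 2.50 ± 0.58, but an adjusted p of 0.0636, followed by Etfa (0.69 ± 0.19, adjusted p = 0.0987). The 6 male values of Abcd2 fell into a high and a low set: rats 3, 9, 7 and 5, with adipocyte gene sums of 22765 to 28483 CPM, had 438, 394, 313 and 277 CPM, whereas rats 1 and 11, with sums of 5441 and 3632 CPM, had 66.5 and 36.1 CPM. Those 2 libraries also had the highest mammary gene sums of the group, 276613 and 207808 CPM. Among the sham females, the library of rat 8 had the highest adipocyte gene sum (68419 CPM) but the lowest Abcd2 (37.1 CPM). The rest of the sham females had sums of 4310 to 9181 CPM and 41.9 to 57.5 CPM of Abcd2. The part of adipocyte or mammary genes was not tested.

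In VAT the direction was the opposite: 7 genes were lower in sham males, against 5.34% of all genes, and none was higher. Ehhadh was at 85.7, 109 and 197 CPM in females and 24.9, 32.3 and 76.3 CPM in males, without overlap (-1.66 ± 0.28, adjusted p = 0.00276). The others were Hadh (-1.04 ± 0.28), Acadvl (-1.03 ± 0.24), Etfdh (-1.01 ± 0.21), Hadhb (-0.91 ± 0.24), Acsl1 (-0.76 ± 0.21) and Pex11a (-0.53 ± 0.16), and their ranges overlapped between the sexes. Without the VAT libraries of rats 4, 8 and 11, Ehhadh (-1.31, adjusted p = 0.0201) and Etfdh (-0.65, adjusted p = 0.0318) still passed and the other 5 did not. The count was 4 without rat 3, 4, 8 or 12, 3 without rat 5 or 9, and 14 with DESeq2. Brown adipocyte genes stood at 290.2 to 1326 CPM in these females and at 71.8 to 270.8 CPM in the males. Of the 3 tested, 2 were lower in males. Over all VAT libraries Kcnk3 had the highest median of this list, 231 CPM. Its range of 37.3 to 697 CPM in VAT overlapped that of 91.7 to 713 CPM in BAT. Ucp1, Cox8b, Zic1 and Elovl3 had medians of 0 in VAT, so the sum is no measure of brown adipocytes alone. The 4 measured mesothelial genes summed to 61.2 to 538 CPM in the females and 55.3 to 395 CPM in the males. The part of either list in the result was not tested. Whether the sex difference itself differed between SAT and VAT was not tested.

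**Figure D4:**
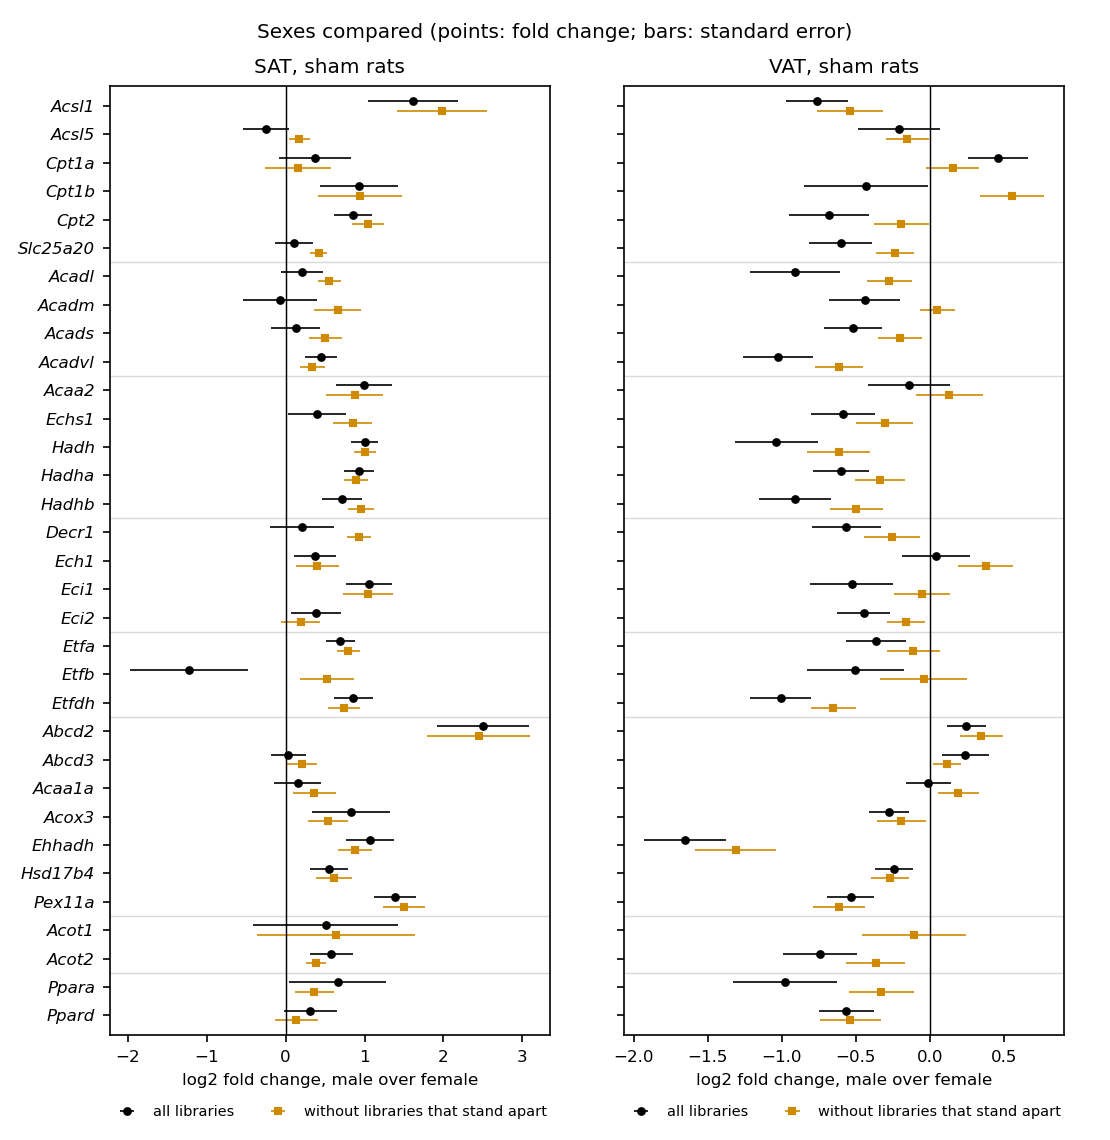
Log2 fold change, male over female (x axis), of each gene (y axis) in SAT and VAT of sham rats, with all libraries and without those that stand apart (rat 8 in SAT; rats 4, 8 and 11 in VAT); points are fitted values and bars standard errors. Most points lie to the right of 0 in SAT and to the left in VAT. Most of those in VAT lie nearer to 0 without the libraries that stand apart, and Cpt1b changes sign.

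PCB 52 exposure changed none of the 33 genes past the threshold in any depot and sex, and 0.0% of all tested genes passed in the 6 comparisons. DESeq2 also called 0 members in each. Pooled over the sexes, 0 members passed in each depot, and the share of all genes was 0.00918% in BAT and 0.0% in SAT and VAT. The test of whether the effect differed by sex gave 0 members and 0.0% of all genes in each depot. Members with an unadjusted p under 0.05 numbered 0 and 2 in BAT of females and males, 2 and 0 in SAT, 2 and 1 in VAT, 3 in pooled BAT, 0 in pooled SAT and VAT, and 0, 1 and 3 for the interaction in BAT, SAT and VAT. The share of all genes is not given beside these counts, so they are not read as a result about the members. Member medians ran from -0.19 in VAT of females to 0.07 in SAT of males. The groups of PCB 52 and sham rats overlapped for every tested member.

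In BAT of males the smallest p was that of Pex11a. It was at 113, 127 and 152 CPM in sham males and 133, 162 and 194 CPM in PCB 52 males, and the groups overlapped. The difference was 0.36 ± 0.10 (adjusted p = 0.434) in males, 0.19 ± 0.16 in females and 0.28 ± 0.10 (adjusted p = 0.259) over both sexes. Without the BAT library of rat 24 the pooled value was 0.34 ± 0.07, with an adjusted p of 0.0766. Acox3, a peroxisomal acyl-CoA oxidase, differed by 0.30 ± 0.11 in males (adjusted p = 0.441) and 0.21 ± 0.09 over both sexes (adjusted p = 0.362). Ppara (0.49 ± 0.24) and Abcd2 (0.43 ± 0.23) were the next in males. All 14 muscle genes had negative values in BAT of PCB 52 males (median -1.41), and their part was not tested. Acsl5 ran lower, by -0.76 ± 0.29 over both sexes (adjusted p = 0.312). In females it had 487, 985 and 1447 CPM in the sham group and 94.5, 509 and 837 CPM in the PCB 52 group, with overlap, and Ehhadh (0.65 ± 0.39), Abcd2 (0.45 ± 0.36) and Acot2 (-0.43 ± 0.42) were the next by p.

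**Figure D5:**
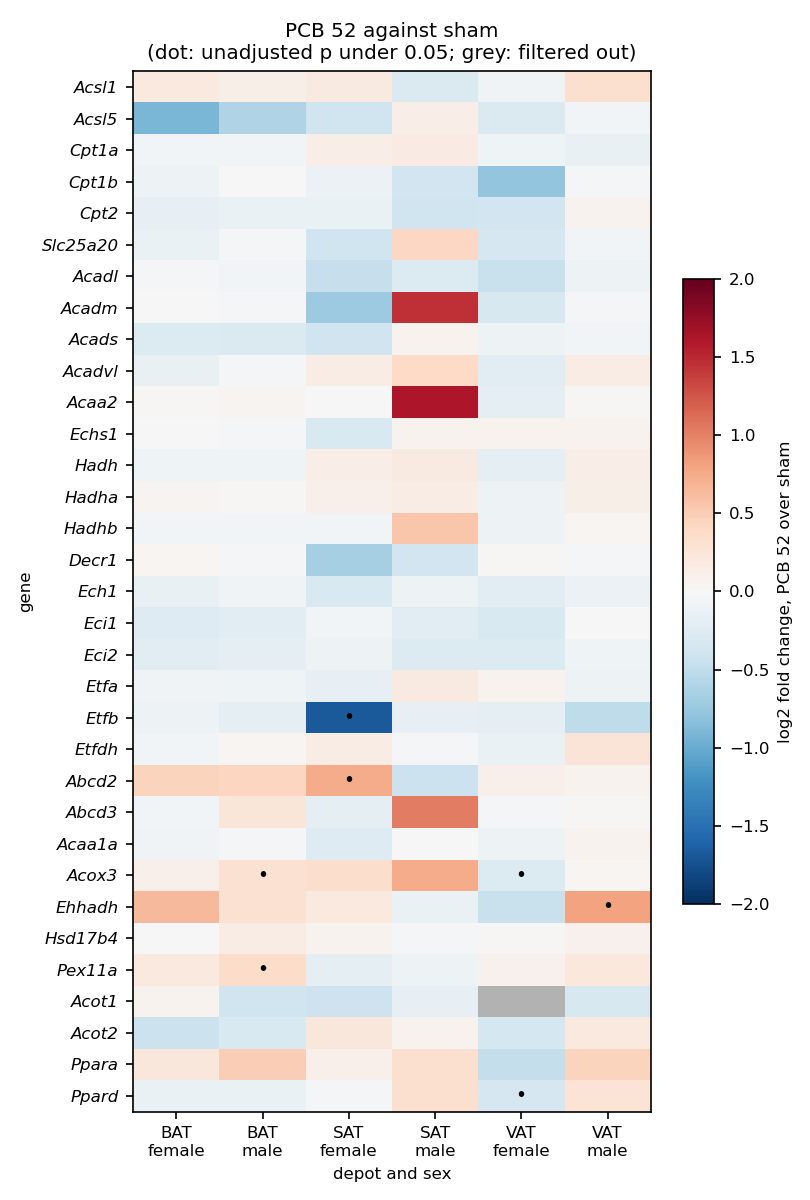
Log2 fold change, PCB 52 over sham, of each gene (y axis) in the 6 combinations of depot and sex (x axis), as a colour scale; dots mark an unadjusted p under 0.05 and grey the gene filtered out for low counts. The deepest colours are those of Etfb in SAT of females and of Acaa2 and Acadm in SAT of males, and no gene passed the adjusted threshold.

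In SAT the largest differences moved with 1 library each. Etfb was lower in PCB 52 females by -1.68 ± 0.72 (adjusted p = 0.768), where the sham library of rat 8 had 859 CPM. Without that library the difference was 0.08 ± 0.21. Acaa2, Acadm and Abcd3 differed by 1.62 ± 0.84, 1.46 ± 0.77 and 1.02 ± 0.63 in males. The PCB 52 library of rat 19 had 4766, 1547 and 834 CPM of these genes, against at most 676, 162 and 146 CPM in the other 5 libraries of its group. Without it the differences were -0.09, -0.16 and -0.22. The same library had the lowest levels of its group for Decr1 (24.3 CPM), Eci1 (21.4 CPM) and Acsl1 (285 CPM). Its 6 sebaceous and preputial gland genes summed to 63809 CPM, where no other SAT library exceeded 15888 CPM. Mup4 supplied 56072 CPM of that sum. The list also holds Scd, with medians of 9509 CPM in BAT and 12194 CPM in VAT, so the sum is no measure of glands alone. Abcd2 was higher in PCB 52 females by 0.74 ± 0.21 (adjusted p = 0.768), with 37.1, 41.9, 44.2, 45.3 and 57.5 CPM in the sham group and 53.0, 76.2 and 98.5 CPM in the PCB 52 group. Without the library of rat 8 its value was 0.70 ± 0.20. Acadl (-0.46 ± 0.25), Acadm (-0.72 ± 0.41) and Slc25a20 (-0.40 ± 0.23) were the next in females, and without rat 8 they were at -0.11, 0.02 and -0.08. In males Acox3 (0.74 ± 0.47) and Acadvl (0.40 ± 0.29) were the next, and without rat 19 they were at 0.01 and 0.07.

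In VAT, Ehhadh had opposite signs in the sexes, with -0.45 ± 0.22 (adjusted p = 0.531) in females and 0.81 ± 0.36 (adjusted p = 0.747) in males. Male values were 24.9, 32.3 and 76.3 CPM in the sham group and 23.9, 59.5, 79.2, 87.3 and 88.4 CPM in the PCB 52 group, where the lowest came from rat 13. The summed level of 4 mesothelial genes was 395 CPM in rat 1 and 55.3 to 169 CPM in the other sham males. It was 146 CPM in rat 13 and 361 to 516 CPM in the other PCB 52 males. Among these males the libraries high in Ehhadh were thus those high in mesothelial genes. In VAT of females this did not hold. Rats 4 and 8 had the highest Ehhadh there (197 and 131 CPM) and the lowest mesothelial sums (61.9 and 61.2 CPM). The part of mesothelial genes in the result was not tested. Without rats 11 and 13 the male difference was 0.93 ± 0.28 (adjusted p = 0.287), and without rats 4 and 8 the female difference was -0.19 ± 0.20. The interaction was 1.26 ± 0.44 (adjusted p = 0.405), and 1.12 ± 0.36 (adjusted p = 0.279) without the libraries that stand apart. Ppard and Ppara had interactions of 0.61 ± 0.24 and 0.92 ± 0.43 (adjusted p = 0.413 and 0.463), the latter 0.35 ± 0.30 without those libraries. Acox3 differed by -0.28 ± 0.11 in females (adjusted p = 0.506) and by 0.04 in males, and Ppard by -0.34 ± 0.15 and 0.27 ± 0.18. Cpt1b ran lower in PCB 52 females by -0.79 ± 0.42 (adjusted p = 0.567), where the sham group held the 177 CPM of rat 4, and Eci2 by -0.27 ± 0.15. Without rats 4 and 8 the values were 0.13 ± 0.23 and -0.06 ± 0.11. In males Ppara (0.45 ± 0.25), Etfb (-0.50 ± 0.30) and Acsl1 (0.32 ± 0.20) followed Ehhadh by p.

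The sign of the member median changed when 1 library was left out in 5 of the 6 comparisons. In BAT of females the median went from -0.05 to 0.14 without rat 24, in SAT of females from -0.09 to 0.02 without rat 8, and in SAT of males from 0.07 to -0.06 without rat 19. In BAT of males it went from -0.05 to 0.06 without rat 23. In VAT of females it went from -0.19 to 0.01 without rat 4 and to 0.10 without rats 4 and 8. In VAT of males it stayed between 0.01 and 0.09. The spread of the members within groups was widest in BAT of PCB 52 females. The median SD of log2 CPM there was 1.06 over the members and 0.31 over all expressed genes. This spread moved with the library of rat 24, whose members lay at a median of -2.41 (log2) from their group, where the other 5 libraries lay between -0.10 and 0.19. In the other groups the member median lay between 0.22 and 0.87.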

How the data were processed

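RNA was sequenced from 3 fat depots in 70 libraries. The authors deposited 6 tables of raw counts per NCBI gene number, 1 per sex and depot. The table for VAT of females was treated as estimated counts, since below its genes the deposited sheet holds 5 lines of totals and ratios. These lines name no gene or repeat one and were left out, and the gene values are whole. FastQC, HISAT2 and the rn6 build are named in the submitters' processing notes. Tool versions, read counter, annotation and strand setting: not given in the sources used here. The labels' protocols leave poly(A) capture or rRNA removal open. Samples with an RNA integrity number below 8 were left out by the authors, per the labels' protocols.

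Of 15319 gene numbers, 15230 matched RefSeq symbols. Each comparison was fitted on its own groups over all genes with edgeR 4.0.16 in R 4.3.3 (filterByExpr, TMM, robust quasi-likelihood F test, Benjamini-Hochberg adjustment, threshold 0.05). Standard errors were taken from the fold change and its F value. DESeq2 1.42.0, other scalings, no expression filter, the rat number as a block and left-out libraries were the alternatives. The fit was tested on simulated counts. The pathway's genes, marker lists and comparison lists were chosen with earlier results of these data known. The text names members past the threshold (of more than 12, the 6 largest each way), or with fewer than 4 past it the 5 of smallest p, and a set list of transport and control genes. Promoter sequences are RefSeq's for GRCr8. Within-group pairs of libraries differed by far more than sampling noise, so none was merged. Depth was 4604116 to 9707132 counts per library, and levels of low genes such as Acot1 are the least precise.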

Additional observations from a re-analysis of the deposited data

Results flagged for a closer look

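Within each group, a library was singled out where its gap to the nearest other library was large against the range of the group (Dixon's 95% critical value), which chance does in about 1 in 20 groups. The summed level of the 33 genes was singled out in 3 libraries. It was 8590 CPM in BAT of rat 24, where the other 5 PCB 52 females had 36722 to 47600 CPM. The same library had a skeletal muscle sum of 64633 CPM (others 654 to 29648) and a macrophage sum of 3071 CPM (others 641 to 1025). It was 6033 CPM in SAT of rat 8, against 2938 to 3560 CPM in the other sham females, and 21519 CPM in VAT of rat 4, against 10605 to 14578 CPM.

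Over the single genes and the summed level together, 84 of 408 tests singled out a library, and 17 libraries were concerned. BAT of rat 24 was singled out for 19 genes, VAT of rat 4 for 18, SAT of rat 8 for 12 and SAT of rat 19 for 9. VAT of rats 13 and 20 was singled out for 4 genes each, and VAT of rat 11 for 3. VAT of rats 11 and 13 was the highest of its group for Acsl5 and Abcd3, and held 1220 and 668 CPM of 6 male tract genes. VAT of rat 23 held 418 CPM of them and every other VAT library at most 0.401 CPM. The part of these genes was not tested. BAT of rat 11 and SAT of rat 14 had 2 each. The remaining 8 libraries, BAT of rat 1, SAT of rats 2, 17 and 18, and VAT of rats 1, 7, 19 and 22, had 1 each. In SAT of rat 8, 10 of its 12 genes were the highest of the group, whereas Acot2 and Etfdh were the lowest. In SAT of rat 19 all 9 were the highest, among them Acaa2, Acadm and Abcd3.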

How the results depend on the processing

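The counts of called genes between BAT and the white depots stayed within 1.5 times under every alternative: 29 to 32 against SAT in females, 29 to 31 in males, 28 to 30 against VAT in females and 27 to 32 in males. SAT against VAT in females gave 21 calls, 17 with the rat number as a replicate block and up to 29 without the SAT library of rat 8. SAT against VAT in males gave 2 calls, 4 with DESeq2, 4 without the libraries that stand apart, 1 with the replicate block and 0 to 4 with 1 library left out. Male against female gave 0 calls in BAT and 1 with DESeq2. In SAT it gave 3 calls, 11 with DESeq2, 1 with plain library totals, 8 without rat 8 and 0 to 8 with 1 library left out. In VAT it gave 7 calls, 14 with DESeq2, 2 without the libraries that stand apart and 3 to 10 with 1 library left out. The share of all genes in these alternative fits is not given beside the counts, here or above. The shifts are therefore not read as a result about the members, and their cause was not tested. No called value changed sign, and PCB 52 gave 0 member calls under every alternative run. Plain library totals moved the median of all genes from -0.14 to -0.37 for BAT against SAT in females and from -0.08 to -0.41 for BAT against VAT in males. Same-numbered sham libraries of different depots deviated together in 17 of 34 pairs (correlation over 0.1, median 0.101), against 32 of 170 pairs of different numbers (median -0.03). The values lean towards pairing, but not in every pair, so the fits without the block were kept. The block fits that involve SAT leave out rat 4, which has no SAT library here, and that of BAT against VAT keeps it.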

Other observations

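Fatty acid oxidation genes outside the 33 were also higher in BAT. Of 51 tested in sham females, 31 were higher in BAT than in SAT and 2 lower, against 16.5% and 21.8% of all genes. Of 51 in males 39 were higher and 2 lower, against 27.6% and 29.9% of all genes. Against VAT the counts were 28 and 4 of 50 in females, where 26.2% and 24.5% of all genes were higher and lower. In males they were 36 and 3 of 50, where the shares were 25.4% and 29.2%. Slc27a2, a very-long-chain acyl-CoA synthetase, had 161, 215 and 362 CPM (lowest, median, highest) in BAT of sham females and at most 1.54 CPM in SAT. Its log2 difference was 9.02 in females and 8.43 in males. Acaa1b, a peroxisomal thiolase, had 16.6, 26.3 and 43.9 CPM in BAT of sham females and at most 0.12 CPM in SAT, and was at 0 in all 6 SAT libraries of sham males. Acsm3, a medium-chain acyl-CoA synthetase, was lower in BAT than in SAT by -4.39 and -2.22. Acaa1b is a near copy of Acaa1a, so reads could have been split between them.

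Regulators and known targets of the pathway were counted in the same way. Of 13 tested in females, 9 were higher in BAT than in SAT, where 16.5% of all genes were higher. Between depots, only this contrast is given for them. Ppargc1a, a coactivator of mitochondrial genes, differed by 7.72, Cidea, a lipid droplet protein, by 7.29 and Plin5, which coats lipid droplets, by 4.32. PCB 52 gave 0 calls in either list with edgeR in any depot and sex, and DESeq2 was not counted for these lists. At most 6 of the oxidation genes and 4 of the regulators had an unadjusted p under 0.05. The share of all genes is not given beside these counts either, and they are not read as a result. Ppargc1a and Cidea are also in the brown adipocyte list.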
